A study of Mus musculus with 18 samples.

Results

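The primitive endoderm markers comprised 9 genes, the transcription factors Gata4, Gata6, Sox17 and Hnf4a, the receptor tyrosine kinase Pdgfra, and the endocytic proteins Dab2, Lrp2, Cubn and Amn. They were chosen by name, as the rows of the count table whose Ensembl identifiers map to these symbols, from 46078 genes in all. All 9 passed the filter on low counts that left 13438 protein-coding genes for testing. The libraries came from wild-type E14 mouse embryonic stem cells (mESCs), an established line of 129 background, which were grown for 24 h in serum with LIF on StemBond hydrogels coated with fibronectin. LIF is a cytokine that sustains self-renewal, and StemBond gels are polyacrylamide gels in which the co-factor AHA sets how firmly matrix is tethered. Soft gels had a modulus near 750 Pa and stiff gels one near 160 kPa, and each was made with 16 mM AHA (low), 48 mM (mid) or 80 mM (high), with 3 libraries for each of these 6 substrates. Cell line, medium, coating and culture time were the same in all groups, and the only variables named were stiffness and AHA.

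Primitive endoderm is the epithelium that forms beside the epiblast of the blastocyst and later gives the visceral and parietal endoderm of the yolk sac. FGF signalling directs cells of the inner cell mass towards it, GATA6 opposes the pluripotency factor NANOG, and GATA4, SOX17 and PDGFRA follow as the fate is set, while HNF4A acts later in visceral endoderm. That tissue takes up maternal protein through megalin (Lrp2) and the cubilin-amnionless complex (Cubn and Amn), with DAB2 as the adaptor that links megalin to clathrin. Megalin is not restricted to endoderm and is also made by other epithelia. Cultures of mESCs in serum can hold some cells that have turned towards primitive endoderm. Markers confined to such a fraction would rise and fall in proportion to each other as the fraction changed, and the libraries were examined for this.

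The results turn on Lrp2, and Cubn and Hnf4a, which were not called between soft and stiff gels on average, are set beside it. Lrp2 and Cubn are receptors that work together at the cell surface. Their fitted differences, averaged over AHA, had opposite signs. Hnf4a was the marker with the lowest fitted soft against stiff difference. The 250 bases before an annotated start of these 3 genes are therefore shown, 5′ to 3′ on the strand of the gene, as RefSeq gives them for GRCm38.p6. Capitals mark matches to a GC box (GGGCGG) and to a GATA motif (AGATAA). Lrp2 is at chr2:69586030-69586279 (minus strand), Cubn at chr2:13491877-13492126 (minus strand) and the upstream Hnf4a start at chr2:163506607-163506856 (plus strand).
Lrp2: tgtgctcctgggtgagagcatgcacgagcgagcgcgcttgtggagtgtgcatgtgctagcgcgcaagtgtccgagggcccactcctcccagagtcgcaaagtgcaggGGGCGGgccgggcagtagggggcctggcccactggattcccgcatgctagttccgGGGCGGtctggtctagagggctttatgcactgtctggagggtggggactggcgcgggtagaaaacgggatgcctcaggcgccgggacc
Cubn: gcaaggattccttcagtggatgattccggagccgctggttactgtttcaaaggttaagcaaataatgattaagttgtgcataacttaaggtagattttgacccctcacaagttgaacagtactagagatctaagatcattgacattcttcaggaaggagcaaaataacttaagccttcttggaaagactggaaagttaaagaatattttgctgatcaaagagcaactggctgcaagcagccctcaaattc
Hnf4a: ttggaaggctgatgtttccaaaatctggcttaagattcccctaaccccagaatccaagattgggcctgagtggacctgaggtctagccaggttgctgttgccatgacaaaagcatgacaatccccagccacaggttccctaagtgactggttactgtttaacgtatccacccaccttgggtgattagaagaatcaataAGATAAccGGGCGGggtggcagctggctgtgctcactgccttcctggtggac
The Lrp2 window held 66.4% G and C and 2 GC boxes, and the Cubn window held 39.6% G and C and no GC box. The upstream Hnf4a window held 1 GATA motif and 1 GC box, which did not overlap. Windows were searched on both strands for these motifs and for a SOX motif (AACAAT) and an HNF4 motif (CAAAGTCCA). Across 32851 promoters of the same length, 32.7% held the GC box, 9.99% the GATA motif, 9.42% the SOX motif and 0.384% the HNF4 motif. RefSeq windows were matched for 6 of the 9 genes (Pdgfra, Hnf4a, Dab2, Lrp2, Cubn and Amn), and the upstream Hnf4a window held the only GATA motif among them. Hnf4a and Dab2 each had a second window, and neither of these held a match to any of the motifs. A match is a description of these letters and does not show that a factor binds there.

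Gene counts per library ranged from 5850621 to 9290261. The share of added ERCC control RNAs was between 0.607 and 0.725% in 17 libraries and was 1.37% in soft, high AHA replicate 1. That library was left out of the tests, so that 8 soft and 9 stiff libraries remained, and its values are given separately. The labels do not say whether the 3 libraries of a group came from separate cultures, so p-values measure the spread between these libraries, which may be technical.

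Per kilobase of exon, Lrp2 was the most abundant marker, and the other 8 were low. Levels are in CPM, which sets each gene's reads against the TMM-scaled total of the tested genes, and were divided by exon length only where genes are compared. On that scale Lrp2 had 24.8 ± 3.73 CPM per kb (SD, n = 17 libraries) and exceeded 84.0% of the genes tested. Dab2 followed with 2.83 ± 0.365, Gata4 with 1.40 ± 0.335 and Amn with 1.12 ± 0.617 CPM per kb. Cubn (0.579 CPM per kb), Gata6 (0.519), Pdgfra (0.470), Hnf4a (0.358) and Sox17 (0.351) were lower still, and Sox17 exceeded 4.65% of tested genes. The ranges of these 5 genes over libraries overlapped each other and that of Amn (0.102 to 2.22 CPM per kb). For comparison, the pluripotency genes Pou5f1 (243 ± 11.8 CPM per kb), Sox2 (153 ± 13.8) and Nanog (53.4 ± 7.56) all stood above Lrp2 in these stem cells. Lrp2 alone held 89.5% of the counts of the 9 markers.

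The depth behind the low markers was small. Mean counts per library were 9.24 for Sox17, 9.29 for Hnf4a, 11.1 for Amn, 18.5 for Gata6, 25.2 for Pdgfra, 29.6 for Gata4, 47.2 for Cubn, 112 for Dab2 and 2230 for Lrp2. Counting error alone would give a coefficient of variation of 32.9% for Sox17 and of 2.12% for Lrp2. The variance between libraries of one group was 12.5 times the counting variance for Lrp2, 4.27 times for Amn and 3.96 times for Cubn (11 degrees of freedom). For Gata4, Dab2, Sox17, Pdgfra and Hnf4a it was between 1.13 and 2.02 times, and for Gata6 it was 0.416 times. The spread of Gata6 and Hnf4a was thus close to or below what counting gives. These ratios cover counting error and assume independent reads, which libraries without molecular identifiers do not ensure.

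**Figure D1:**
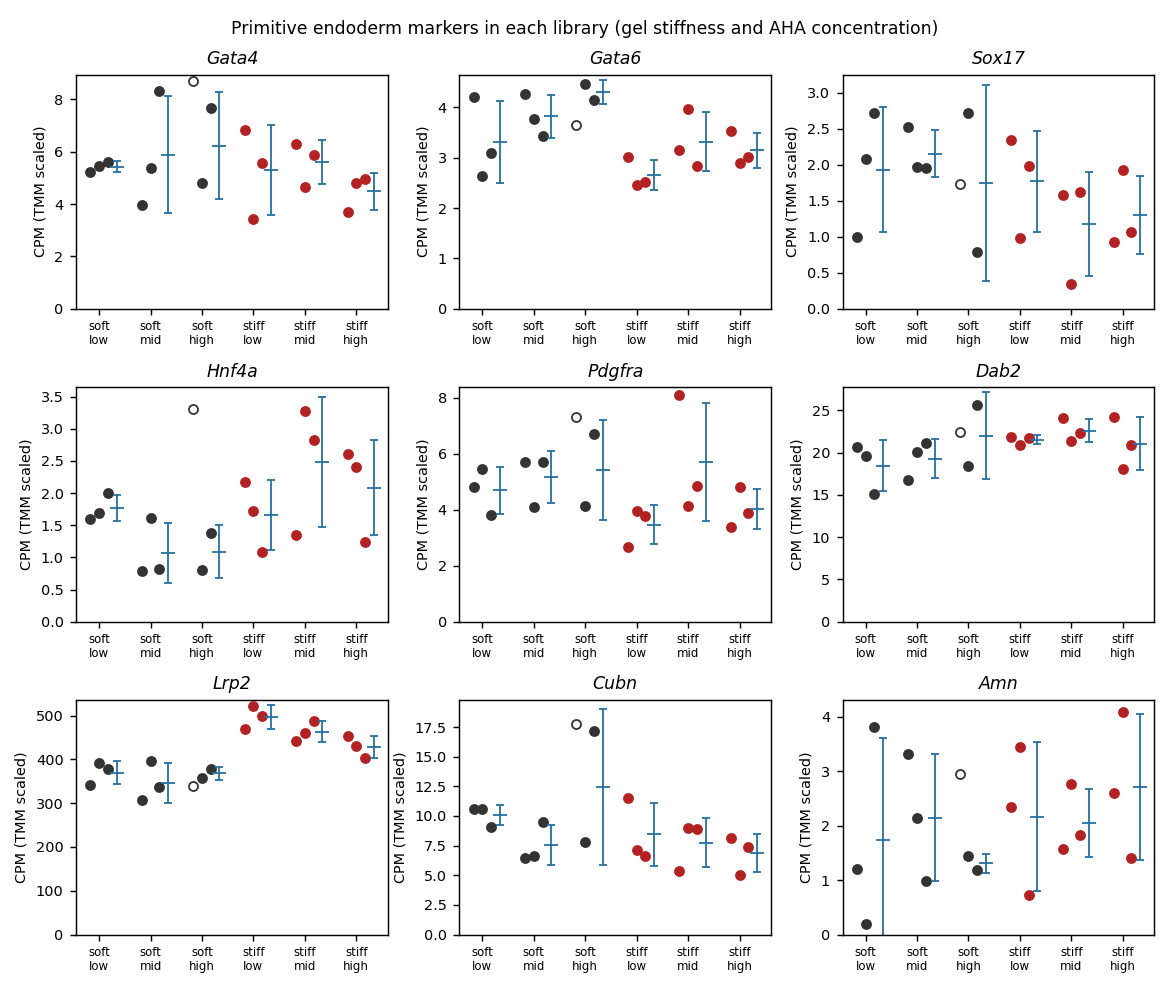
CPM (TMM scaled, y axes from 0) of each of the 9 markers in each library, in 6 groups of gel stiffness and AHA concentration; dark points are soft gels, red points stiff gels, the open point is the soft, high AHA library left out of the tests, and blue bars are the mean ± SD of the libraries tested, cut at 0 for Amn. Only for Lrp2 do all soft libraries (306 to 396 CPM) lie below all stiff libraries (403 to 522 CPM).

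The first comparison asked whether the markers differed between soft and stiff gels. Averaged over the 3 AHA concentrations, 1 of the 9 markers was called by edgeR's quasi-likelihood test (Benjamini-Hochberg adjusted p under 0.05 over all genes tested), against 8.59% of all genes. That marker was Lrp2, which was lower on soft gels, as were 4.82% of genes, while 3.77% were called higher. Of the 9 fitted log2 fold changes (soft minus stiff), 5 were above 0 and 4 below, with a median of 0.18 beside 0.00105 for all genes. In bulk libraries, fewer cells of a type and less RNA per cell cannot be told apart.

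The GATA factors of the endoderm programme had values that were slightly higher on soft gels and did not pass the test. Gata4 (chr14:63198922-63271692, minus strand) ranged from 3.95 to 8.33 CPM on soft gels (median 5.42, n = 8) and from 3.45 to 6.85 CPM on stiff gels (median 4.95, n = 9). Its fitted log2 fold change was 0.18 ± 0.18 (SE, adjusted p = 0.625). The groups overlapped, with 2 soft libraries above every stiff one and 2 stiff libraries below every soft one.

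Gata6 (chr18:11052064-11085635, plus strand), the factor that opposes Nanog in the inner cell mass, had 4.21, 2.64 and 3.09 CPM on soft, low AHA gels, 4.27, 3.76 and 3.43 CPM on soft, mid AHA gels, and 4.47 and 4.14 CPM on soft, high AHA gels. On stiff gels it had 3.01, 2.46 and 2.52 CPM with low AHA, 3.15, 3.97 and 2.83 CPM with mid AHA, and 3.53, 2.89 and 3.01 CPM with high AHA. Soft libraries were mostly the higher ones, with 4 of 8 above every stiff library, but the groups overlapped. The fitted log2 fold change was 0.31 ± 0.22 (SE, 95% interval -0.12 to 0.74, adjusted p = 0.457).

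Sox17, a factor of the committed primitive endoderm and of the endoderm of the gut, ranged from 0.788 to 2.72 CPM on soft gels (median 2.02, n = 8) and from 0.345 to 2.34 CPM on stiff gels (median 1.58, n = 9). The fitted log2 fold change of Sox17 was 0.51 ± 0.32 (SE, adjusted p = 0.394), with an interval from -0.13 to 1.15. It rested on 2 to 17 counts per library. Of the exon bases of Sox17 (chr1:4490931-4497354, minus strand), 16.8% lie opposite exons of Gm37587, and since the strand setting of the counting is not given in the sources used here, reads there cannot be assigned with certainty.

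Hnf4a (chr2:163506808-163572910, plus strand), a nuclear receptor of visceral endoderm and liver, was the factor whose values were lower on soft gels. Soft libraries had 1.61, 1.70 and 2.00 CPM with low AHA, 0.790, 1.61 and 0.817 CPM with mid AHA, and 0.798 and 1.38 CPM with high AHA. Stiff libraries had 2.17, 1.73 and 1.08 CPM with low AHA, 1.35, 3.28 and 2.83 CPM with mid AHA, and 2.61, 2.41 and 1.24 CPM with high AHA. At low AHA the soft values lay within the range of the stiff ones, while 3 soft libraries, all with mid or high AHA, were below every stiff one and 5 stiff libraries were above every soft one. The fitted difference was -0.70 ± 0.32 (SE, log2, unadjusted p = 0.0314 from the quasi-likelihood test of edgeR, adjusted p = 0.185), so Hnf4a was not called. With the left-out library included, the difference kept its sign, and over 24 alternative settings it ran from -0.84 to -0.32.

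Pdgfra (chr5:75152292-75198215, plus strand) encodes the PDGF receptor that primitive endoderm displays and needs for survival. Its CPM ran from 3.81 to 6.70 on soft gels (median 5.14, n = 8) and from 2.67 to 8.10 on stiff gels (median 3.94, n = 9). No soft library stood above every stiff one, and 3 stiff libraries lay below every soft one. The log2 fold change of 0.26 ± 0.19 (SE) did not pass the test (adjusted p = 0.488). Exons of Gm42802 and Gm42803 lie opposite 6.21% of its exon bases.

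Lrp2 (chr2:69424340-69586065, minus strand), with 80 exon blocks in the annotation, encodes megalin, a very large endocytic receptor. Soft libraries had 340, 392 and 377 CPM with low AHA, 306, 396 and 336 CPM with mid AHA, and 358 and 378 CPM with high AHA. Stiff libraries had 469, 522 and 500 CPM with low AHA, 441, 461 and 489 CPM with mid AHA, and 453, 430 and 403 CPM with high AHA. All 8 soft libraries were below all 9 stiff libraries, a separation in either direction shown by 1.27% of the genes tested. The means were 360 ± 31.0 CPM on soft gels and 463 ± 36.8 CPM on stiff gels (SD), and the log2 fold change was -0.36 ± 0.051 (SE, 95% interval -0.47 to -0.25, adjusted p = 0.000479). Lrp2 was called in each of 24 alternative settings, with log2 fold changes from -0.39 to -0.33.

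At single AHA concentrations Lrp2 was again the 1 marker called on low AHA gels, where 3.04% of genes were called, and on mid AHA gels, where 2.86% were. Its log2 fold change was -0.42 ± 0.085 (SE) at both, with adjusted p = 0.0139 at low and 0.0165 at mid AHA. The low AHA call was lost without soft, low AHA replicate 3 or stiff, low AHA replicate 2 or 3 (Lrp2 adjusted p = 0.0540, 0.0540 and 0.0691 by edgeR), with log2 fold changes of -0.44, -0.39 and -0.41. The mid AHA call was lost without soft, mid AHA replicate 3 or stiff, mid AHA replicate 2 or 3 (Lrp2 adjusted p = 0.0725, 0.0681 and 0.0667), with log2 fold changes of -0.40, -0.42 and -0.38. With high AHA none of the 9 markers was called by edgeR, against 0.841% of genes, and 2 had an unadjusted p under 0.05, against 10.5% of genes. For Lrp2 at high AHA the value was -0.22 ± 0.096 (SE, adjusted p = 0.428), and it was called there without soft, mid AHA replicate 2 (adjusted p = 0.0140, 0.843% of genes called) or when the filter was lowered to 2 counts (adjusted p = 0.0104, 0.653% of 18075 genes called).

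Cubn (chr2:13276338-13491813, minus strand), which encodes cubilin, the partner of megalin in protein uptake, had an average difference of the other sign and was not called. Soft libraries had 10.6, 10.6 and 9.08 CPM with low AHA, 6.48, 6.62 and 9.48 CPM with mid AHA, and 7.82 and 17.1 CPM with high AHA. Stiff libraries had 11.5, 7.15 and 6.65 CPM with low AHA, 5.40, 8.98 and 8.91 CPM with mid AHA, and 8.14, 5.06 and 7.42 CPM with high AHA. The groups overlapped, with soft, high AHA replicate 3 above every stiff library and 2 stiff libraries (5.40 and 5.06 CPM) below every soft one. The average log2 fold change of Cubn was 0.33 ± 0.15 (SE, 95% interval 0.036 to 0.62, unadjusted p = 0.0279 in the edgeR fit, adjusted p = 0.172). The Cubn value was 0.23 ± 0.24 (SE, adjusted p = 0.766 by edgeR) at low AHA, -0.059 ± 0.25 (adjusted p = 0.952) at mid AHA and 0.80 ± 0.27 (adjusted p = 0.144) at high AHA.

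The Cubn values depended on single libraries. At low AHA the log2 fold change of Cubn was 0.55 without stiff, low AHA replicate 1, 0.14 without replicate 2 and 0.078 without replicate 3 of that group. At mid AHA it was above 0 without soft, mid AHA replicate 1 (0.047) or 2 (0.020) or stiff, mid AHA replicate 2 (0.068) or 3 (0.040), and was -0.26 without soft, mid AHA replicate 3 and -0.24 without stiff, mid AHA replicate 1, so its sign there was not settled. At high AHA it was 0.15 without soft, high AHA replicate 3, and 1.28 without replicate 2, where Cubn was called (adjusted p = 0.0121 by edgeR, 0.607% of genes called). Without replicate 3 of that group the average log2 fold change of Cubn was 0.11 (adjusted p = 0.787 by edgeR), and without replicate 2 it was 0.48 (adjusted p = 0.0246, 7.28% of genes called). Leaving out either leaves this group with 1 library, which is assumed to vary like the other groups. With all 18 libraries, Cubn at high AHA had a log2 fold change of 1.00 and was called (adjusted p = 0.00492, 2.58% of genes called).

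Amn and Dab2 were not called. Amn (chr12:111271095-111276426, plus strand), whose product anchors cubilin in the membrane, ran from 0.189 to 3.81 CPM on soft gels (median 1.32, n = 8) and from 0.719 to 4.10 CPM on stiff gels (median 2.34, n = 9). Its log2 fold change was -0.39 ± 0.33 (SE, adjusted p = 0.557), opposite in sign to that of its partner Cubn. Dab2 (chr15:6299788-6440712, plus strand), the clathrin adaptor that sorts megalin, ran from 15.1 to 25.6 CPM on soft gels (median 19.8) and from 18.1 to 24.3 CPM on stiff gels (median 21.8). The fitted value of Dab2 was -0.14 ± 0.092 (SE, adjusted p = 0.415), and the ranges overlapped.

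Several of these uncalled averages rested on single libraries. Without soft, high AHA replicate 3 the log2 fold change of Gata4 was 0.064, that of Pdgfra 0.14 and that of Dab2 -0.22, and Gata4 was at 0.070 without soft, mid AHA replicate 3 and at 0.12 without stiff, low AHA replicate 2. Without soft, high AHA replicate 2 the value of Sox17 was 0.12, that of Dab2 -0.067 and that of Gata4 0.29. Amn was at -0.83 without soft, low AHA replicate 3, at -0.21 without soft, low AHA replicate 2 and at -0.25 without stiff, low AHA replicate 2. With all 18 libraries Hnf4a was at -0.45 and Amn at -0.23. Using soft, high AHA replicate 1 in place of replicate 2 put Gata4 at 0.32, Pdgfra at 0.39 and Hnf4a at -0.32. In place of replicate 3 it put Amn at -0.15. These exchanges were chosen after seeing the data.

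**Figure D2:**
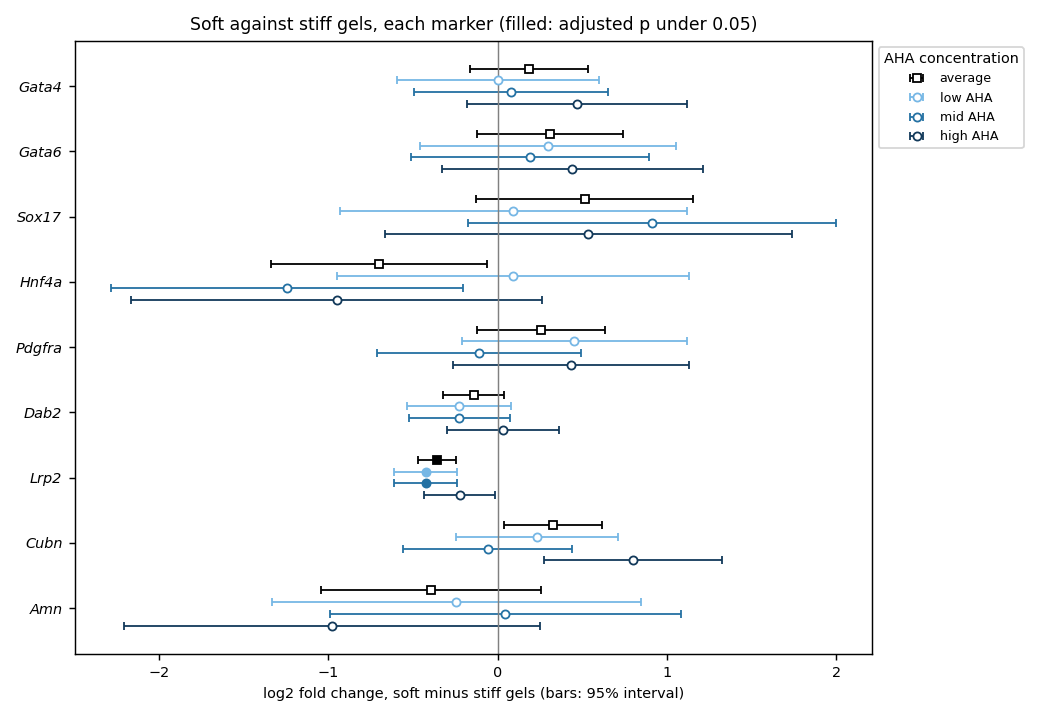
Fitted log2 fold changes (x axis, soft minus stiff) of the 9 markers with 95% intervals, averaged over AHA (black squares) and at low, mid and high AHA (blue circles); filled symbols have an adjusted p under 0.05. Lrp2 is filled for the average (-0.36) and at low and mid AHA (-0.42 at both), and no other marker has a filled symbol.

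The second comparison asked whether the markers followed AHA, the measure of tethering, at fixed stiffness. On soft gels none of the 9 was called by edgeR between high and low AHA (0.253% of genes called), high and mid AHA (0.067%) or mid and low AHA (0% of genes). On stiff gels none was called between high and low AHA (0.00744% of genes), high and mid AHA (0.00744%) or mid and low AHA (0%). DESeq2 gave an adjusted p to all 9 markers in 4 of these 6 contrasts and called none, whereas in the remaining pair, the comparisons of high AHA with mid and with low AHA on soft gels, it gave one to Lrp2 alone (not called). Unadjusted p-values under 0.05 were found for 1 marker each in 3 of them. The share of all genes with such a p was 8.51% for high against low, 6.81% for high against mid and 6.1% for mid against low AHA on soft gels, and 6.04%, 5.83% and 4.99% for the same contrasts on stiff gels.

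These were Cubn in high against mid AHA on soft gels (log2 fold change 0.70 ± 0.26, SE, adjusted p = 0.541 by edgeR), Lrp2 in high against low AHA on stiff gels (-0.21 ± 0.085, adjusted p = 0.776) and Pdgfra in mid against low AHA on stiff gels (0.71 ± 0.33, adjusted p = 0.975). The Cubn value was 0.052 without soft, high AHA replicate 3 and 1.18 without replicate 2, and the Pdgfra value was 0.39 without stiff, mid AHA replicate 1. The mean of the high minus low AHA differences on soft and stiff gels gave no call among the 9 markers, against 0.112% of genes, and no marker had an unadjusted p under 0.05, against 8.64% of genes. The interaction of stiffness with AHA also called no marker (0.0298% of genes called), and none had an unadjusted p under 0.05 (6.71% of genes). The lowest p among the 9 in that test was that of Cubn (edgeR unadjusted p = 0.0625, adjusted p = 0.769). A difference between AHA concentrations in the soft against stiff value of Lrp2 was therefore not shown, although the call itself was made at low and mid AHA only.

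Whether the markers moved together was first examined between libraries of one substrate. Log2 CPM values were centred on the mean of each group, and all 36 pairs of markers were correlated over the 17 libraries. The median Pearson r was -0.03, with 17 pairs above 0 and 19 below. Of these pairs, 2 had p under 0.05 in a two-sided exact permutation test within groups and 0 had after Benjamini-Hochberg adjustment over the 36 pairs (smallest adjusted p = 0.50). With Spearman's rho the split was 18 to 18. The median r was 0.036 when the 2 libraries farthest from the median were left out of each pair. Counting error pulls r towards 0 for markers with few counts, so these values cannot decide whether the markers moved together.

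The highest correlation was between Dab2 and Cubn (r = 0.58, permutation p = 0.0655, rho = 0.54, permutation p = 0.0981, adjusted p = 0.50 and 0.51), and r fell to 0.37 without the 2 libraries farthest from the Dab2 median. The lowest was between Dab2 and Amn (r = -0.57, permutation p = 0.0466, rho = -0.60, permutation p = 0.0183, adjusted p = 0.50 and 0.51), with r = -0.42 without those 2 libraries. Hnf4a and Lrp2 gave r = 0.57 (permutation p = 0.0403, rho = 0.52, permutation p = 0.0655, adjusted p = 0.50 and 0.51), and r = 0.48 without the 2 farthest libraries. Cubn and Amn, whose products form 1 complex, gave r = -0.18.

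**Figure D3:**
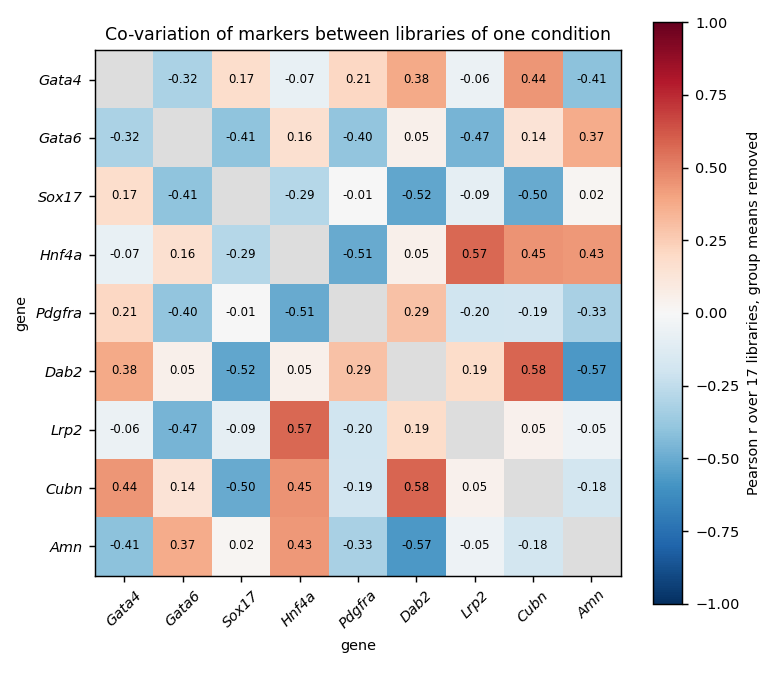
Pearson r of log2 CPM for each pair of the 9 markers over 17 libraries after subtraction of the group means (colour scale from -1 in blue to 1 in red, the diagonal is grey). Values run from -0.57 (Dab2 and Amn) to 0.58 (Dab2 and Cubn), with 17 pairs above 0 and 19 below.

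Between soft and stiff gels the fitted fold changes of some markers lay apart. The fitted 95% interval of Lrp2 (-0.47 to -0.25) lay apart from those of Gata4 (-0.17 to 0.53), Gata6 (-0.12 to 0.74), Sox17 (-0.13 to 1.15), Pdgfra (-0.12 to 0.64) and Cubn (0.036 to 0.62), and that of Hnf4a (-1.34 to -0.064) lay apart from that of Cubn. In all, 6 of the 36 pairs had intervals that did not overlap, and no share over other genes was taken for this count. The ratio of each pair was then compared between soft and stiff libraries with a two-sided exact permutation test over all 4000 exchanges of soft and stiff labels within AHA concentrations. This test was added after the values had been seen. Before adjustment 13 of the 36 ratios had a permutation p under 0.05, and after adjustment over the 36 pairs 8 did, of which 4 involved Lrp2. The same test was run on the ratios of the other 13429 tested genes to each of the 9 markers, of which 24.6% had an unadjusted permutation p under 0.05. For Lrp2 that share was 74.1%, beside 6 of its 8 ratios to other markers, for Gata6 54.2% beside 3 of 8 and for Hnf4a 41.2% beside 4 of 8. For the other 6 markers it was between 1.18% (Amn, 0 of 8) and 14.8% (Dab2, 4 of 8). The ratios to Lrp2, Gata6 and Hnf4a thus differed about as often, or less often, for markers than for genes at large. They are no result about the markers as a group. For the count after adjustment no share over other genes was taken. Sox17 to Lrp2, whose intervals lay apart, was not among the 8 (difference in log2 ratio 0.74, exact permutation p = 0.0285, adjusted p = 0.11).

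The lowest p was that of the ratio of Gata6 to Lrp2. Of the other genes, 54.2% had an unadjusted permutation p under 0.05 in ratio to Gata6 and 74.1% in ratio to Lrp2. Gata6 also varied less between libraries than counting gives (0.416 times). The Gata6 to Lrp2 ratio had a mean log2 value of -6.46 on soft and -7.09 on stiff gels. The difference, averaged over AHA concentrations, was 0.65 (exact permutation p = 0.00025, the smallest the 4000 exchanges can give, adjusted p = 0.009), and 6 of 8 soft libraries had a ratio above every stiff one. This ratio kept an adjusted p under 0.05 in each of 20 alternative settings, with differences from 0.57 to 0.71. The log2 ratio of Lrp2 to Cubn was 5.22 on soft and 5.88 on stiff gels, a difference of -0.69 (exact permutation p = 0.002, adjusted p = 0.0345) that stayed under 0.05 in 14 of the 20 settings and had an adjusted p of 0.0833 without soft, high AHA replicate 3. Ratios of Gata4 (0.53, adjusted permutation p = 0.0345) and Pdgfra (0.59, adjusted permutation p = 0.0347) to Lrp2 were likewise higher on soft gels, and stayed under 0.05 in 13 and 11 of the 20 settings.

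The 4 pairs without Lrp2 were Hnf4a to Cubn (difference in log2 ratio -0.86, adjusted permutation p = 0.0345), Gata6 to Hnf4a (0.82, adjusted p = 0.0345 by the same permutation test), Gata6 to Dab2 (0.43, adjusted permutation p = 0.0345) and Dab2 to Cubn (-0.47, adjusted permutation p = 0.0495). These stayed under 0.05 in 13, 9, 11 and 5 of the 20 settings. Over these settings the differences ran from -0.98 to -0.76, 0.64 to 0.93, 0.33 to 0.52 and -0.58 to -0.37. All but Dab2 to Cubn involved Gata6 or Hnf4a. Of the ratios of other genes to these 2 markers, 54.2% (Gata6) and 41.2% (Hnf4a) had an unadjusted permutation p under 0.05. The count of 8 pairs fell to 1 when soft, low AHA replicate 1, soft, mid AHA replicate 3, stiff, low AHA replicate 2, stiff, mid AHA replicate 3 or stiff, high AHA replicate 1 was left out. It fell to 3 without soft, high AHA replicate 3, to 4 without soft, mid AHA replicate 1 or stiff, mid AHA replicate 2, and to 5 without soft, high AHA replicate 2. Leaving out a library also lowers the number of exchanges the test can draw on.

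The summed level of the 9 markers followed Lrp2, which supplied most of it. It was 409 ± 32.9 CPM on soft gels (SD, n = 8) and 511 ± 37.0 CPM on stiff gels (SD, n = 9). Without Lrp2, the other 8 markers summed to 49.1 ± 6.82 CPM on soft gels (43.8 to 64.6) and to 47.8 ± 3.73 CPM on stiff gels (43.8 to 52.8). The difference of 1.29 CPM was smaller than the spread within either stiffness, and since the markers were chosen with results known it was not tested. It was 3.37 CPM with all 18 libraries, and without soft, high AHA replicate 3 its sign turned (-0.928 CPM). The sum without Lrp2 was chosen after the data had been seen.

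A single library of those tested stood out in that sum. Soft, high AHA replicate 3 had 64.6 CPM (95% Poisson interval 57.8 to 72.0, counting error only), above the 52.8 CPM of the next highest library, while replicate 2 of the same group had 44.6 CPM. In replicate 3, Dab2 (25.6 CPM) and Cubn (17.1 CPM) were the highest of the 17 libraries, and Gata4 (7.68 CPM), Pdgfra (6.70 CPM) and Gata6 (4.14 CPM, above every stiff library) were high. Sox17 (0.788 CPM from 4 counts), Hnf4a (1.38 CPM) and Amn (1.18 CPM) were not. The left-out replicate 1 of this group had a sum of 67.8 CPM, with Cubn at 17.7, Gata4 at 8.69 and Hnf4a at 3.30 CPM, each above all 17 other libraries, Pdgfra at 7.30, Dab2 at 22.4, Gata6 at 3.65, Amn at 2.96 and Sox17 at 1.74 CPM. The part of its ERCC share of 1.37% in these values was not tested. Replicate 3, with its sum of 64.6 CPM, had an ERCC share of 0.668%.

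**Figure D4:**
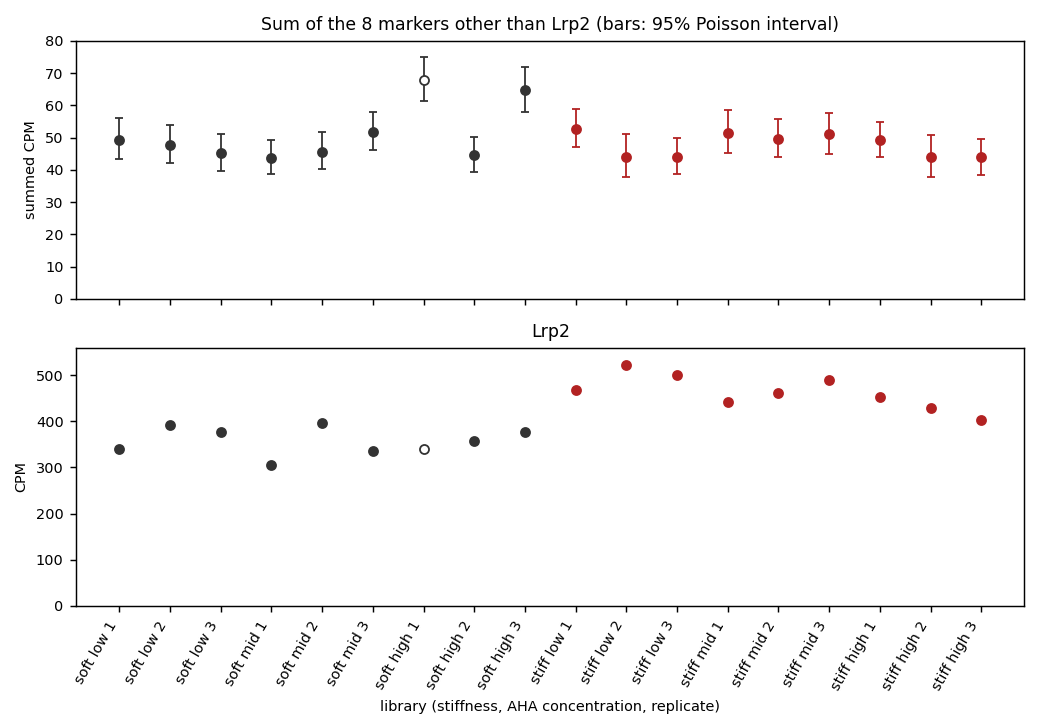
Summed CPM of the 8 markers other than Lrp2 with 95% Poisson intervals (upper panel) and CPM of Lrp2 (lower panel) in each of the 18 libraries; dark points are soft gels, red points stiff gels and the open point is the left-out library, and both y axes start at 0. In the upper panel soft, high AHA replicates 1 (67.8) and 3 (64.6) stand above the others, while in the lower panel both are within the range of the other soft libraries.

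The genes whose profile was most like that of the markers were sought among all genes tested. Likeness was the Pearson r, over the 17 libraries and without any adjustment for group, between a gene and the mean of the 9 standardised log2 CPM profiles. The 5 highest were Psmb4 (r = 0.80), which encodes a proteasome subunit, Ism2 (0.78), Gtf3c1 (0.77), which encodes a subunit of a general factor of RNA polymerase III, Npr2 (0.77) and Man2a1 (0.74), which encodes a Golgi mannosidase. None is in the endoderm lists used here. The markers' own values against a mean that contains them ran from -0.27 for Sox17 to 0.59 for Gata4. These correlations share libraries and depth and are a description.

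Lists of related genes were examined with the same fit, and their counts stand beside the 8.59% of all genes called between soft and stiff gels. Of 6 other endoderm transcription factors, 5 were tested and none was called, with a median log2 fold change of 0.071 beside 0.00105 for all genes. Elf3 (54.4 CPM, 0.15, edgeR adjusted p = 0.0845), Foxa1 (35.9 CPM, -0.13, adjusted p = 0.722), Sox7 (4.48 CPM, 0.014, adjusted p = 0.979) and Foxq1 (1.67 CPM, 0.19, adjusted p = 0.810) are the named members. Exons of A530084C06Rik lie opposite 66.1% of the exon bases of Foxq1, and those of Gm26642 opposite 7.31% of the exon bases of Elf3, so reads there are uncertain in the same way as for Sox17. Gata5 was below the filter, with a mean of 0.228 CPM.

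Of 28 matrix and secreted products of endoderm, 19 were tested. On soft gels 2 of them were called higher and 5 were called lower, and the median was -0.0065. Serpinh1, a collagen chaperone (-0.36, edgeR adjusted p = 2.9e-12), and the basement membrane collagen Col4a2 (-0.28, adjusted p = 8.3e-10) were lower, whereas the laminin chain Lama1 (0.33, adjusted p = 1.6e-11) and the apolipoprotein Apoe (0.18, adjusted p = 3.2e-09) were higher. The others called were Col4a1, Sparc and Lamb1, all lower. Of the visceral endoderm products, Apob was measured at 4.23 CPM (13 to 36 counts, log2 fold change -0.12, edgeR adjusted p = 0.817) and was named after its values were seen. Ttr had no count in any library, and Afp, Apoa1 and Apoa2 had means of 0.0799, 0.120 and 0.0863 CPM with at most 3 counts in a library. A count of 0 allows up to 3 counts per library.

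Of 20 endocytosis partners, all were tested, of which 1 was higher and 1 was lower on soft gels (median 0.0001). The receptor Lrp8, a relative of Lrp2, was lower (21.4 ± 2.83 CPM on soft and 26.0 ± 3.88 CPM on stiff gels, SD, log2 fold change -0.30, edgeR adjusted p = 0.0131), as was Lrp2. The motor Myo6, which moves endocytic vesicles, was higher (22.4 ± 1.80 and 17.9 ± 3.11 CPM, 0.34, adjusted p = 0.0083). Related receptors that were not called included Lrp1 (-0.12, adjusted p = 0.0576) and Vldlr (0.50, adjusted p = 0.363). The clathrin heavy chain Cltc (-0.038, adjusted p = 0.341), the light chain Clta (-0.030, adjusted p = 0.570) and Lrpap1, the chaperone of megalin (0.090, adjusted p = 0.0569), also did not pass. Lrp1, Vldlr and Lrpap1 were named after their values were seen.

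Of 13 genes of FGF and PDGF signalling around the choice of endoderm, all were tested, of which 1 was higher and 2 were lower on soft gels (median -0.017). Fgf4, the ligand made by epiblast cells, was higher (135 ± 8.26 CPM on soft and 112 ± 5.83 CPM on stiff gels, SD, 0.28, edgeR adjusted p = 1.2e-08). Etv4 (-0.56, adjusted p = 2.6e-18) and Dusp6 (-0.20, adjusted p = 0.00142), both targets of FGF signalling, were lower. Other targets of the pathway were not called, namely Etv5 (0.080, adjusted p = 0.141), Spry2 (-0.095, adjusted p = 0.192) and Spry4 (-0.057, adjusted p = 0.418), which were named after their values were seen. The FGF receptor Fgfr1 (0.055, adjusted p = 0.382) was not called either.

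**Figure D5:**
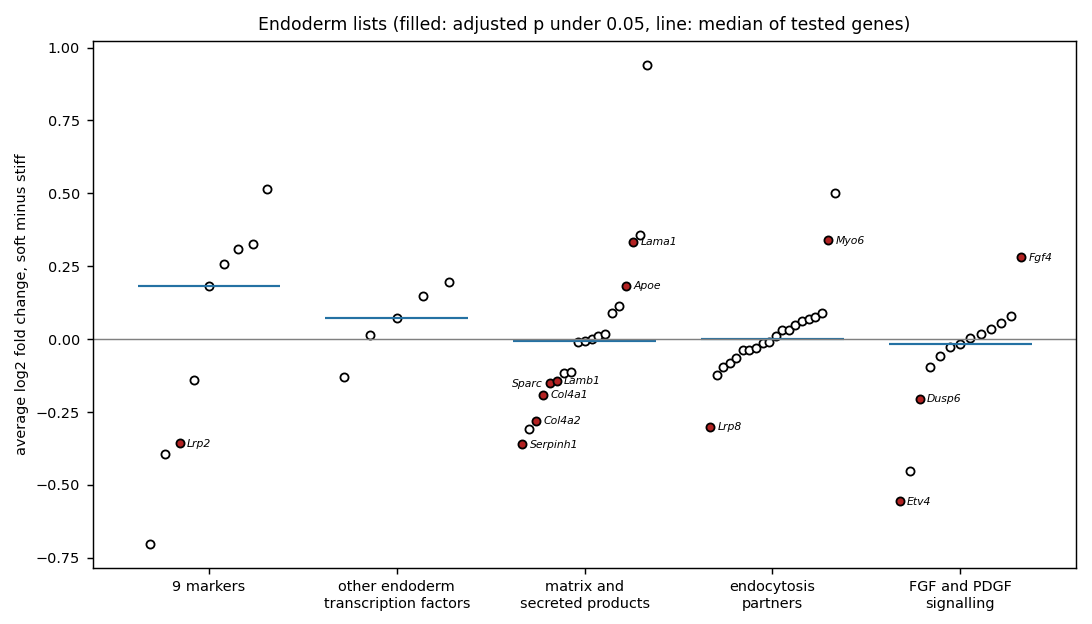
Average log2 fold change (y axis, soft minus stiff) of each tested gene in the 9 markers and in 4 lists of related genes (x axis), ordered by value within a list; filled points have an adjusted p under 0.05 and are named, and blue lines are medians of the tested genes. Called genes lie on both sides of 0 in 3 of the 5 sets, and none of the other endoderm transcription factors is called.

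Markers of other cell types were measured in the same libraries, beside a background of 3.77% of all genes called higher and 4.82% called lower on soft gels. Of 6 embryonic stem cell markers, 5 (Dppa5a, Esrrb, Nanog, Sox2 and Zfp42) were called higher on soft gels, and their summed CPM was 1610 to 1770 on soft and 1450 to 1570 on stiff gels. Of 8 trophoblast markers, 7 were tested, of which 1 (Tfap2c) was higher and 2 (Hand1 and Krt7) were lower, with sums of 220 to 254 CPM on soft and 224 to 250 CPM on stiff gels. Of 6 definitive endoderm markers, 4 were tested and none was called (10.8 to 18.7 and 9.88 to 17.7 CPM), and none was called of the 6 tested of 7 primitive streak, 3 of 5 neuroectoderm and 4 of 5 2-cell-like markers. The neuroectoderm sums were 19.0 to 26.7 CPM on soft and 13.2 to 21.8 CPM on stiff gels. For primitive streak they were 24.6 to 41.6 and 25.9 to 41.6 CPM, and for 2-cell-like markers 19.9 to 29.5 and 22.1 to 31.3 CPM. Of 7 fibroblast markers, 5 were tested and 1 (Col1a1) was called, lower on soft gels, with sums of 114 to 197 CPM on soft and 166 to 237 CPM on stiff gels. The stem cell sums were higher in every soft library than in any stiff one, the fibroblast sums overlapped, and their part in the Lrp2 difference was not tested. The top gene was Tfap2c in the trophoblast sum and Col1a1 in the fibroblast sum, so these sums are not levels of a cell type.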

How the data were processed

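RNA from E14 mESCs on 6 substrates was sequenced from 18 libraries. The authors prepared libraries with a pico-input mammalian kit, trimmed reads with Trim Galore 0.4.4 (per the submitters' processing notes), aligned them with GSNAP to GRCm38/mm10 and used HTSeq to count them over Ensembl genes. The table deposited holds these raw counts without scaling, and whether HTSeq used strand is not given in the sources used here. HTSeq summary lines, 61.5 to 64.0% of each column, and spike-ins stayed out of library sizes. A few genes of the related lists are not reported here. Symbols, exons and coordinates came from GENCODE M21 (GRCm38).

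Here, protein-coding genes were filtered (filterByExpr, minimum count 10), scaled by TMM and fitted with edgeR 4.0.16 (R 4.3.3) by a robust quasi-likelihood model with 1 coefficient per group on 17 libraries. P-values were adjusted by Benjamini-Hochberg over 13438 genes within a contrast. Standard errors came from the quasi-likelihood F statistic. Correlations and ratios used log2 CPM (prior count 2) and exact permutation tests (numpy 2.4.6). Replicates were numbered in sample order. Scripts were tested on simulated data. Alternatives were RLE size factors, DESeq2 1.42.0, a filter of at least 2 counts, all biotypes, all 18 libraries, each library left out, Spearman correlation, a prior count of 0.5, and CPM over all gene counts.

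The 9 markers and all lists were chosen with earlier results of these data known. All markers are described. Of each related list up to 4 genes are named, called genes by lowest adjusted p first and then genes by highest mean CPM. Other called genes and genes below the filter were named after their values were seen.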

Additional observations from a re-analysis of the deposited data

Results flagged for a closer look

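The soft, high AHA library left out for its ERCC share (replicate 1) had 3 markers above each of the 17 libraries tested. Cubn was at 17.7 CPM from 102 counts, against 5.06 to 17.1 CPM in the others. Gata4 was at 8.69 CPM from 50 counts, against 3.45 to 8.34 CPM, and Hnf4a was at 3.30 CPM from 19 counts, against 0.791 to 3.28 CPM. Cubn and Hnf4a exceeded the next highest library by less than 1 CPM, as did Gata4. In the same library Pdgfra (7.30 CPM) was above 16 of the 17 others, Amn (2.96 CPM) above 13 and Sox17 (1.74 CPM) above 8, while Lrp2 (339 CPM) was above 2. No test was made on these values, which come from 1 library scaled together with the other 17.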

How the results depend on the processing

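The average soft minus stiff log2 fold change of each marker kept its sign in all 24 alternatives, which were fits with another scaling, test, filter, gene set or set of libraries. At high AHA, 1 marker was called instead of 0 with the filter of at least 2 counts (Lrp2, 0.653% of genes called in that fit), with all 18 libraries (Cubn, 2.58%) and with replicate 2 of the soft, high AHA group left out in place of replicate 1 (Cubn, 2.86%), and leaving out single libraries gave 0 to 1 (0.303 to 0.874% of genes). High minus low AHA on stiff gels gave 1 call (Lrp2, 0.0498% of genes) with the filter of at least 2 counts. Replicate 2 in place of replicate 1 also gave 1 call in high minus mid AHA on soft gels (Cubn, 0.0372% of genes) and 2 calls in the average soft minus stiff contrast (10.3% of genes), where Cubn was at 0.50 (adjusted p = 0.00689 by edgeR); this exchange was chosen after seeing the data. Leaving out single libraries gave 1 to 2 calls for that average (Cubn at 0.48 without soft, high AHA replicate 2; 6.95 to 8.49% of genes), and 0 to 1 calls at low (1.83 to 3.07%) and at mid AHA (1.66 to 3.06%). The median correlation changed sign, to 0.036, with the 2 farthest libraries left out, and ran from -0.072 to 0.014 without single libraries. The count of 8 ratios ran from 1 to 9 without single libraries and was 7 or 8 with a prior count of 0.5, RLE factors or 18 libraries, all chosen after seeing the data. The causes were not tested. DESeq2 gave no adjusted p to Sox17, Hnf4a and Amn in the average soft minus stiff contrast, gave one to 2 or 3 of the 9 markers at single AHA concentrations (not to Cubn at high AHA), and to Lrp2 alone in the average of high minus low AHA and in the interaction. The sum without Lrp2 ran from -0.928 to 2.05 CPM (soft minus stiff) without single libraries. No paired analysis was possible because the labels give no replicate numbers shared between groups. Depth limits Sox17, Hnf4a and Amn most, at mean counts of 9.24 to 11.1 per library.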

Other observations

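Among the related lists, the contrasts between AHA concentrations held few calls. In high against low AHA on soft gels, where 0.253% of all genes were called, 2 of the 19 tested matrix and secreted products were called by edgeR, both higher with high AHA. These were Col4a1, a chain of basement membrane collagen (log2 fold change 0.28, adjusted p = 0.00701), and Serpinh1, the collagen chaperone (0.31, adjusted p = 0.042). Both genes were lower on soft than on stiff gels in the average over AHA. The Col4a1 call was lost when any library of the soft, low AHA group, or replicate 2 or 3 of the soft, high AHA group, was left out (adjusted p = 0.0504 to 0.128, log2 fold change 0.26 to 0.30). The Serpinh1 call was lost without soft, low AHA replicate 1 (0.21, adjusted p = 0.537 by edgeR) or replicate 2 (0.34, adjusted p = 0.0538). Without soft, mid AHA replicate 1 (adjusted p = 0.0538) or replicate 2 (adjusted p = 0.0518), and with DESeq2 (adjusted p = 0.0775), it was lost at an unchanged 0.31. With all 18 libraries it was lost as well (0.20, adjusted p = 0.422). The same held when replicate 1 of the soft, high AHA group was used and replicate 2 (0.073, adjusted p = 0.848) or replicate 3 (0.20, adjusted p = 0.544) dropped instead. Without soft, high AHA replicate 2, which leaves this group 1 library, the log2 fold change of Serpinh1 was 0.19. These alternatives were chosen after seeing the data. On soft gels 16 of the 19 values for high minus low AHA were above 0, with a median of 0.15 beside -0.0007 for all genes, whereas on stiff gels 14 of the 19 were below 0, with a median of -0.057 and 0 called. The average over both stiffnesses had a median of 0.018 and 0 called. The interaction of stiffness with AHA also called 0 of the 19, so a different response on soft and stiff gels was not shown. These genes share the same libraries, and the counts of signs are a description. None of the 5 tested endoderm transcription factors was called in high against low AHA on soft gels.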
